A study of Mus musculus with 3 samples.

Results

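The microRNA processing machinery was followed here through 10 genes of the 55401 listed in the count files, picked by a rule that uses their names and no measured value. They were *Drosha* and *Dgcr8* (the Microprocessor), *Xpo5* (nuclear export), *Dicer1*, *Tarbp2* and *Prkra* (Dicer and its partners), and *Ago1*, *Ago2*, *Ago3* and *Ago4* (the Argonautes). All 10 had a row in the files, and all 10 passed the floor set on the mean count, 10 or more, together with 17115 genes in total. RNA came from maxillary processes of *wnt1cre; Rosa26Dlx2/-* embryos at E10.5. In these embryos, Cre recombinase under *Wnt1* control removes a stop cassette at the *Rosa26* locus, so that the CAG promoter drives a Flag-tagged *Dlx2* in cells of neural crest origin. The 3 bulk RNA-Seq libraries of this genotype are called OE replicates 1, 2 and 3, in accession order. The methods of the study name C57BL/6 dams, and the labels give the dams the genotype of the embryos. How many embryos were behind each library was not stated. No wild-type library is analysed here. Each value is therefore a level in overexpressing tissue, and no difference between genotypes was tested.

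A microRNA begins as a hairpin within a longer transcript. DROSHA, an RNase III enzyme, cuts the hairpin out in the nucleus while DGCR8 holds it, exportin 5 carries it to the cytoplasm, and DICER1, a second RNase III enzyme, trims it to a duplex with help from the double-stranded RNA-binding proteins TARBP2 and PRKRA. An Argonaute protein keeps a single strand of the duplex as a guide and pairs its seed (bases 2 to 8) with target mRNAs. Loss of *Dicer1* in the mouse neural crest is known to cause cell death and severe loss of craniofacial structures. Poly(A) libraries such as these count the mRNAs of the machinery and the long host transcripts of microRNAs, and not the mature microRNAs.

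The libraries held 35351031 to 40057435 counts on genes. *Dlx2*, the targeted gene, was at 235, 201 and 183 counts per 1000000 counts on genes (CPM, scaled with TMM factors) in replicates 1, 2 and 3, which does not separate the *Rosa26* allele from the endogenous gene. All 10 markers of maxillary mesenchyme, *Prrx1* and *Twist1* among them, reached at least 1 CPM in all 3 libraries. Other tissues differed between the libraries. The 9 neuron markers summed to 273 CPM in replicate 1 against 24.3 and 35.9 in replicates 2 and 3, the 7 eye and forebrain markers to 24.8 against 153 and 151, and the 7 pigment cell markers to 5.00, 33.9 and 157, with *Tyr* and *Tyrp1* at 0 counts in replicate 1. The 7 epithelial markers summed to 368, 237 and 231 CPM, the 5 endothelial markers to 243, 265 and 178, the 5 erythroid markers to 1947, 3633 and 4262, and the 5 macrophage markers to 21.8, 28.8 and 34.8. *Xist* was at 671 CPM in replicate 1 and at 0.309 and 0.557 in replicates 2 and 3, and 4 Y-linked genes summed to 0, 146 and 109 CPM. Replicate 3 also stood apart by gene length. The log2 CPM of replicate 3 minus the mean of replicates 1 and 2 had a median of 0.64 for genes with up to 2 kb of exon and of -0.56 for genes over 8 kb. Values without each library are therefore given where they change a result. In bulk tissue, fewer cells of a type and less RNA per cell cannot be told apart.

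Both ends of the pathway carry a sequence feature that bears on how their reads were counted, so these sequences are shown first. *Dgcr8* (ENSMUSG00000022718, chromosome 16 of GRCm38, 18253948 to 18289246, minus strand) is itself the host of 2 annotated microRNA hairpins, and Microprocessor cleavage of its own mRNA at such hairpins is a known form of feedback. In the annotation, the hairpin of miR-1306 lies in coding sequence of the longest *Dgcr8* transcript and that of miR-3618 in its 5′ UTR. The mature sequences from RefSeq (GRCm38.p6) are printed with the seed in capitals.
mmu-miR-3618-5p (chr16:18284602-18284623, minus strand): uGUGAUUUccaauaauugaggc
mmu-miR-3618-3p (chr16:18284562-18284583, minus strand): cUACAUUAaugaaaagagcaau
mmu-miR-1306-5p (chr16:18284288-18284310, minus strand): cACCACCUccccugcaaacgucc
mmu-miR-1306-3p (chr16:18284248-18284268, minus strand): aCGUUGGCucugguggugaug
The genes of both hairpins had 0 counts in all 3 libraries. They share 79 and 88 bases with *Dgcr8* exons, and HTSeq by default leaves a read over bases of more than 1 gene unassigned. Under that default, their count of 0 sets no upper limit on their level. In all, 17.1% of the exonic bases of *Dgcr8* are shared with other genes, 825 of them with *Trmt2a* on the opposite strand. *Trmt2a* itself was counted at 2947, 3184 and 4450 in replicates 1, 2 and 3. The counting strand was not stated, so reads of *Dgcr8* and *Trmt2a* over these bases cannot be told apart. Per unshared base, the level of *Dgcr8* relative to *Drosha* was somewhat higher, as given below.

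*Ago1*, *Ago3* and *Ago4* lie next to each other on chromosome 4 of GRCm38, all on the minus strand, in the order *Ago3* (ENSMUSG00000028842, 126331704 to 126429556), *Ago1* (ENSMUSG00000041530, 126435012 to 126468583) and *Ago4* (ENSMUSG00000042500, 126489541 to 126533472). The gaps between them are 5455 and 20957 bases. *Ago2* (ENSMUSG00000036698) stands alone on chromosome 15, 73095844 to 73184935, minus strand. The proteins encoded by the longest transcripts were 79.0% to 86.1% identical in pairwise alignments, with AGO1 and AGO3 the closest pair and AGO2 and AGO4 the most distant. The coding bases of *Ago1* and *Ago3* were 75.8% identical over the whole alignment, but a run of 170 bases within a single coding exon was the same in both genes. It is shown as it stands in the *Ago1* transcript, with the shared run in capitals and 20 bases of *Ago1* on either side.
*Ago1* (chr4:126448778-126448947, minus strand, for the capitals): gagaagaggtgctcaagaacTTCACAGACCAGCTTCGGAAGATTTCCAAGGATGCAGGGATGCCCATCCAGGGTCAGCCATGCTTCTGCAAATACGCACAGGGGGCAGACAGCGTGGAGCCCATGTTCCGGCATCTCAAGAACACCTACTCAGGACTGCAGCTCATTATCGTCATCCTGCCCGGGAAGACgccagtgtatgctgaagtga
The same 170 bases lie in *Ago3* at 126363657 to 126363826. A read pair that falls wholly inside the run has no unique place in the genome, and HTSeq by default counts such reads for neither gene. The run makes up 2.09% of the exonic bases of *Ago1* and 1.03% of those of *Ago3*. Between *Ago1* and *Ago2* the longest shared run was 53 bases, and no other pair of Argonaute transcripts shared a stretch of 50.

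The Microprocessor subunits were far apart in level. *Drosha* (ENSMUSG00000022191, chromosome 15, 12824815 to 12935291, plus strand), the nuclear RNase III enzyme, had 8858, 8145 and 9553 counts in replicates 1, 2 and 3, or 230, 229 and 254 CPM. *Dgcr8*, its RNA-binding partner, had 2252, 1882 and 1344 counts, or 58.3, 52.9 and 35.7 CPM. *Drosha* was thus nearly level across the libraries, with a coefficient of variation of 5.94%, while *Dgcr8* was lowest in replicate 3, with 24.2%. Per kb of exon, *Drosha* stood at 40.0 ± 2.38 CPM and *Dgcr8* at 6.36 ± 1.54 (SD, n = 3), and the ranges did not overlap. The ratio of *Drosha* to *Dgcr8* on this scale was 5.10, 5.61 and 9.22 in replicates 1, 2 and 3, a mean of 6.64 ± 2.24 (SD, n = 3), or 5.36 without replicate 3. It was 5.57 per unshared exonic base and 4.84 per base of the longest coding transcript, so *Drosha* was the higher subunit under each length.

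*Xpo5* (ENSMUSG00000067150, chromosome 17, 46202782 to 46243598, plus strand), which exports precursor hairpins, was at 208, 215 and 179 CPM in replicates 1, 2 and 3. No exonic base of *Xpo5* is shared with another gene. Per kb of exon it was at 29.2 ± 2.77 CPM (SD, n = 3), with a coefficient of variation of 9.49% that was among the 3 lowest of the 10 genes.

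*Dicer1* (ENSMUSG00000041415, chromosome 12, 104687742 to 104751952, minus strand), the cytoplasmic RNase III enzyme, had 8935, 7761 and 5973 counts, or 232, 218 and 159 CPM. Replicate 3 was the low library. The annotated exons of *Dicer1* cover 16750 bases, the longest of the 10 genes, which puts its level per kb at 12.1 ± 2.32 CPM (SD, n = 3). The ratio of *Dicer1* to *Drosha* per kb was 0.357, 0.338 and 0.222 in replicates 1, 2 and 3, a mean of 0.306 ± 0.0734 (SD, n = 3), and 0.400 per base of the longest coding transcripts. The nuclear RNase III mRNA was therefore above the cytoplasmic one in all 3 libraries under both lengths.

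The partners of Dicer moved apart between libraries. *Tarbp2* (ENSMUSG00000023051, chromosome 15, 102518192 to 102523676, plus strand), which stabilises DICER1 and helps to load Argonaute, had 3673, 3971 and 7189 counts, or 95.2, 112 and 191 CPM. *Prkra* (ENSMUSG00000002731, chromosome 2, 76629898 to 76648015, minus strand), its relative with 51.3% identical residues, had 2744, 2530 and 2440 counts, or 71.1, 71.1 and 64.8 CPM. Replicate 3 thus held 2.01 times the *Tarbp2* level of replicate 1, while the highest *Prkra* value was 1.10 times the lowest. The share of *Tarbp2* in the sum of both, per kb of exon, was 37.4%, 41.2% and 56.8%, a mean of 45.1% ± 10.3 (SD, n = 3). *Prkra* was the higher partner in replicates 1 and 2 and *Tarbp2* in replicate 3 on that scale. The 14 annotated *Tarbp2* transcripts cover 4549 exonic bases, whereas the longest coding transcript has 1523. Divided by the longest coding transcript instead, *Tarbp2* rather than *Prkra* was the higher partner in all 3 libraries, with a share of 58.7%, 62.5% and 75.7%. Which partner mRNA was more abundant in replicates 1 and 2 therefore depended on the length used.

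The Argonaute mRNAs formed a steep series. *Ago2*, the only mouse Argonaute known as an efficient slicer of its targets, had 7081, 5608 and 3262 counts, or 183, 158 and 86.6 CPM in replicates 1, 2 and 3. *Ago1* had 4038, 2776 and 2409 counts, or 105, 78.0 and 63.9 CPM. Both were highest in replicate 1 and lowest in replicate 3, by 2.12 and 1.64 times. *Ago3* was at 22.4, 16.6 and 11.1 CPM, also lowest in replicate 3. *Ago4* was the rarest member, with 148, 92 and 104 counts, or 3.83, 2.58 and 2.76 CPM. At this depth *Ago4* was well above the limit that a count of 0 allows, at most 0.0843 CPM. Per kb of exon, *Ago2* and *Ago1* were at 10.2 ± 3.57 and 10.1 ± 2.54 CPM (SD, n = 3) with overlapping ranges, *Ago3* at 1.01 ± 0.341 and *Ago4* at 0.440 ± 0.0974. On this scale *Ago2* was the higher of the first pair in replicates 1 and 2 and *Ago1* in replicate 3. Per kb of the longest coding transcript, *Ago1* was the higher in replicate 1 as well, at 14.5 against 13.3 CPM per kb.

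**Figure D1:**
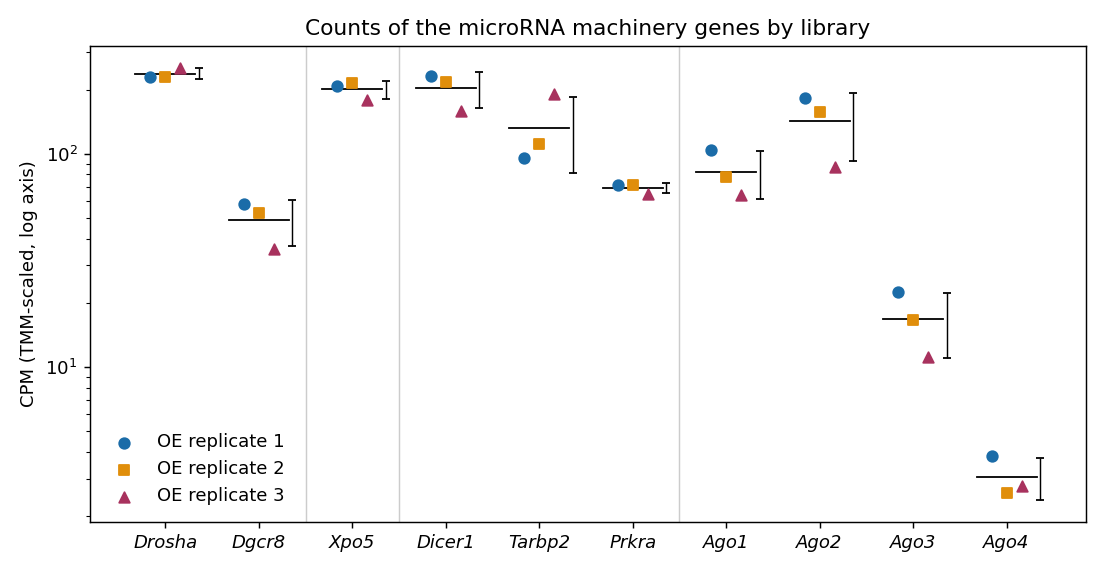
CPM of the 10 machinery genes on a log axis in OE replicates 1 (circles), 2 (squares) and 3 (triangles), with the mean as a line and ± 1 SD as a bar beside it (n = 3), grouped by step of the pathway. *Drosha*, *Xpo5* and *Prkra* keep their 3 points close together, *Tarbp2* is highest in replicate 3 at 191 CPM, and *Ago2* is lowest there at 86.6 CPM.

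Summed over the 4 Argonautes, the level per kb was 27.9, 22.2 and 15.1 CPM in replicates 1, 2 and 3. The total was lowest in replicate 3. Which Argonaute led depended on the library and on the length used. *Ago2* made up 46.9%, 50.6% and 40.8% of the sum, a mean of 46.1% ± 4.92 (SD, n = 3). *Ago1* made up 46.2%, 43.2% and 52.1%, a mean of 47.2% ± 4.50. *Ago3* and *Ago4* added 4.61% ± 0.220 and 2.10% ± 0.487. Dividing by the longest coding transcripts gave 44.6%, 48.2% and 38.6% for *Ago2*, a mean of 43.8%, and 48.6%, 45.6% and 54.4% for *Ago1*, a mean of 49.5%. The 3 Argonaute neighbours on chromosome 4 therefore differed widely in level, with *Ago1* above *Ago3* and *Ago3* above *Ago4* in every library.

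**Figure D2:**
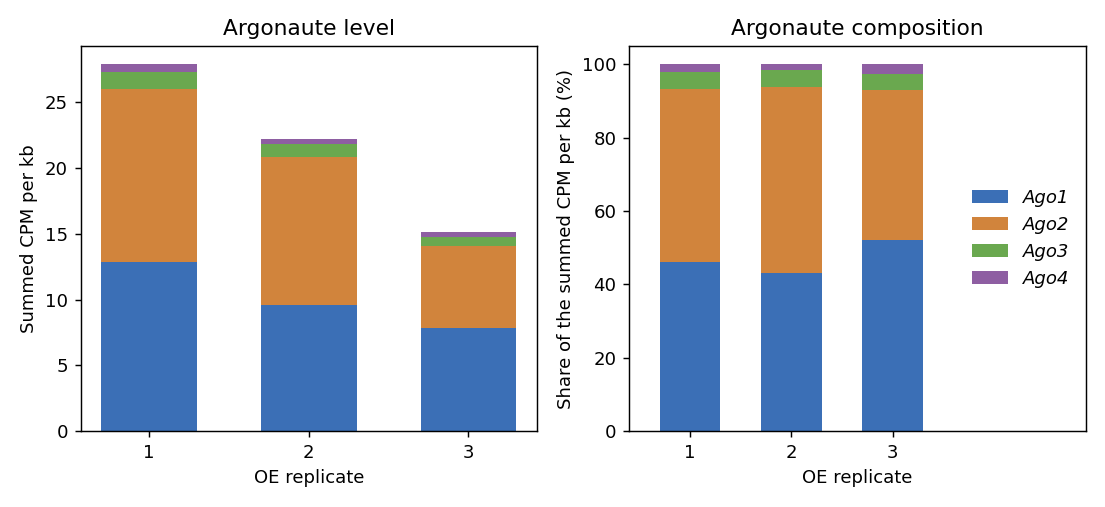
Stacked bars for the 4 Argonautes in OE replicates 1, 2 and 3. Left, CPM per kb of exon, where the full bar is the sum (27.9, 22.2 and 15.1); right, each gene's share of that sum in percent, where *Ago1* and *Ago2* together fill most of every bar.

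Set side by side per kb of exon, the 10 genes fell into 3 tiers. *Drosha* (40.0 CPM per kb), *Prkra* (34.02), *Xpo5* (29.2) and *Tarbp2* (29.1) formed the first, *Dicer1* (12.1), *Ago2* (10.2), *Ago1* (10.1) and *Dgcr8* (6.36) the second, and *Ago3* (1.01) and *Ago4* (0.440) the third. Neighbours in this order whose ranges over the libraries overlapped were *Xpo5* and *Tarbp2*, *Dicer1* and *Ago2*, and *Ago2* and *Ago1*. Within libraries, *Dicer1* was nevertheless above *Ago2* in all 3, whereas *Xpo5* was above *Tarbp2*, and *Ago2* above *Ago1*, in 2 of 3. The other 6 neighbouring pairs did not overlap. The median of the 10 genes was 11.1 CPM per kb against 3.45 over all genes tested. By this measure *Drosha* was above 92.2% of the genes tested and *Dgcr8* above 62.5%, while *Ago3* and *Ago4* were above 29.9% and 17.8%. With the longest coding transcript as the length, *Tarbp2* rose to the top at 87.0 CPM per kb and *Dgcr8* (11.3) overlapped with *Ago1* (11.4). *Ago3* and *Ago4* stayed last under both lengths.

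**Figure D3:**
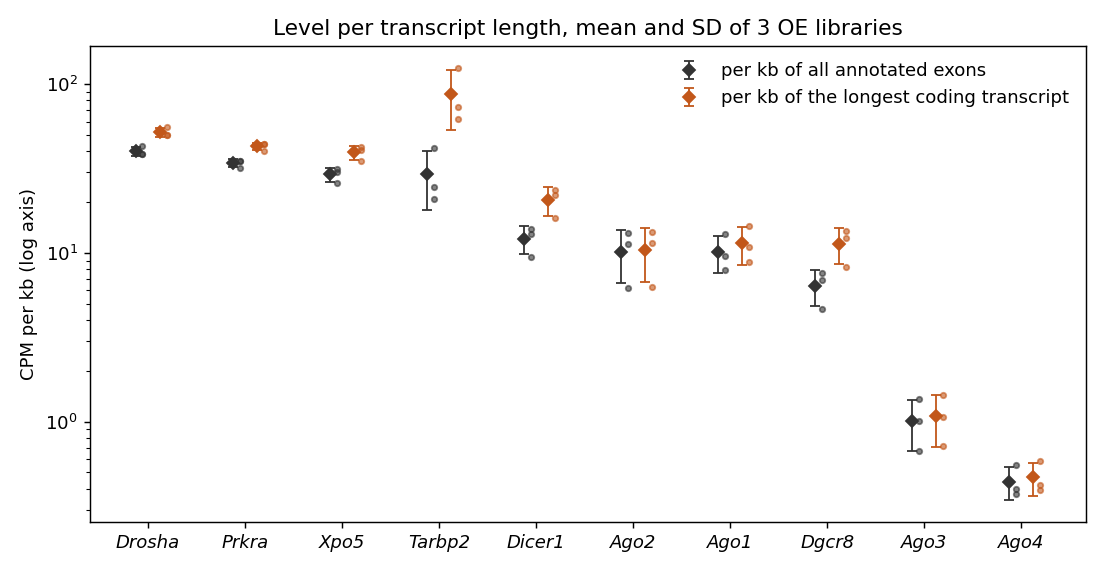
Level of each gene per kb of all annotated exons (dark) and per kb of the longest coding transcript (orange), on a log axis. Diamonds and bars are the mean ± SD of the 3 OE libraries and small points the single libraries; *Tarbp2* moves most between the lengths, from 29.1 to 87.0 CPM per kb, and *Ago3* and *Ago4* sit lowest with both.

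All 10 genes differed between the 3 libraries by more than counting noise (chi-square test of each gene's counts against the scaled library sizes, Benjamini-Hochberg adjusted p under 0.05). So did 81.5% of all 17115 genes tested, so the count is near the background and is not a result about the machinery. Between replicates 1 and 2 alone, 7 of the 10 genes differed against 48.8% of all genes, the exceptions being *Drosha*, *Xpo5* and *Prkra*. Without replicate 1, 9 of 10 differed against 71.2% of all genes, *Ago4* being the exception, and without replicate 2 all 10 against 77.7%. The biological coefficient of variation is edgeR's estimate of the relative SD beyond counting error, and its value common to all genes was 0.371. For single genes this estimate is drawn toward a trend over all genes on their mean level. It is therefore no measure of a gene's own spread and lies well above the observed 5.94% of *Drosha* and 5.29% of *Prkra*. It ran from 0.217 for *Prkra* and *Drosha* to 0.370 for *Ago4*. Its median over the 10 genes was 0.267, beside 0.339 over all genes tested, which were not matched to the 10 in level. Without replicate 3 the median fell to 0.111. These tests compare libraries of the same genotype and say nothing of an effect of *Dlx2*.

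In replicate 3, 7 of the 10 genes had their lowest CPM, against 45.6% of all genes tested, and 2 had their highest, *Drosha* and *Tarbp2*, against 43.2%. In replicate 1, 7 of the 10 had their highest CPM, against 39.6%. The 3 log2 ratios of a gene, each library to the mean of the others, add up to 0 by construction. A length trend in replicate 3 is therefore mirrored in the other libraries. The median ratio was -0.45 for genes up to 2 kb and 0.40 over 8 kb in replicate 1, and -0.15 and 0.16 in replicate 2. The median ratio of the 10 genes in replicate 1 was 0.37, and 0.10 with the trend on length and GC content removed. *Ago3* went from 0.72 to 0.08 and *Dicer1* from 0.32 to -0.15, while *Ago1* went from 0.57 to 0.33, *Ago2* from 0.65 to 0.25 and *Ago4* from 0.51 to 0.21. The median log2 ratio of replicate 3 to the mean of the others was -0.37 over the 10 genes and -0.03 over all genes tested. *Ago2* (-0.97), *Ago3* (-0.79), *Dgcr8* (-0.64), *Dicer1* (-0.50) and *Ago1* (-0.50) had the lowest values, and *Tarbp2* (0.89) the highest. Of these 5 low members, *Dicer1*, *Ago1*, *Ago2* and *Ago3* belonged to the 2600 genes with over 8 kb of exon, whose median was -0.56, and *Dgcr8* had 7696 bases. *Prkra*, the shortest member with 2028 bases of exon, was also lowest in replicate 3, at -0.13, where genes of 2 to 4 kb had a median of 0.16. Once each library was freed of a smooth dependence on GC content and union exon length, the median of the 10 genes was 0.04. On that scale *Dicer1* was at 0.11, *Ago3* at 0.04, *Ago1* at -0.19 and *Dgcr8* at -0.20. *Ago2* remained the lowest at -0.45 and *Tarbp2* the highest at 0.61, which put them above 21.4% and 83.9% of all genes tested. With the longest transcript as the length in the trend, *Ago2* was still the lowest at -0.38, but *Tarbp2* came to 0.21, under *Ago4* at 0.40 and *Drosha* at 0.37. The lower level of the machinery in replicate 3 as a group thus turned to about 0 with the trend removed. The part of eye, pigment and neural tissue in these differences was not tested.

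**Figure D4:**
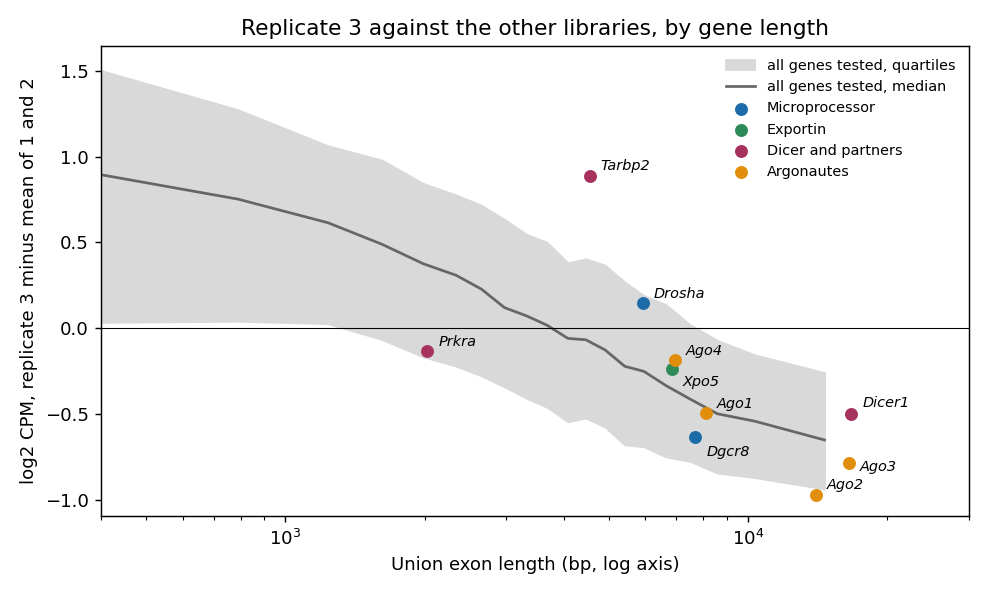
Log2 CPM in OE replicate 3 minus the mean of replicates 1 and 2 against exonic length on a log axis, with the 10 machinery genes as coloured points and the median and quartiles of all genes tested in 20 length classes as a grey line and band. The all-gene median falls with length, most members lie within the band or past its right end, *Tarbp2* lies above the band at 0.89 and *Ago2* near its lower edge at -0.97.

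The wider pathway was read from lists of genes named by function. The Argonautes of the PIWI branch, which act with piRNAs in the germ line, were near 0. *Piwil1* had 0 counts in every library, *Piwil2* had 11, 5 and 9, and *Piwil4* had 8, 5 and 2. In contrast, each of the other 64 cofactor genes reached at least 1 CPM in all 3 libraries, as did 75.3% of the 17115 genes tested. The TNRC6 scaffold genes, which link Argonautes to the mRNA decay machinery, were led by *Tnrc6a* at 148, 134 and 134 CPM, with *Tnrc6c* at 79.3, 73.1 and 70.4 and *Tnrc6b* at 52.0, 45.0 and 27.9. Per kb of exon these were 10.9 ± 0.632, 5.78 ± 0.355 and 1.76 ± 0.523 CPM (SD, n = 3), without overlap. By means on this scale *Tnrc6a* was near *Ago1* and *Ago2*, but the order turned between libraries. In replicate 1 it was at 11.6 against 13.1 for *Ago2* and 12.9 for *Ago1*, and in replicate 3 at 10.6 against 6.17 and 7.88. Per kb of the longest transcript its mean was 16.9 against 10.3 for *Ago2* and 11.4 for *Ago1*.

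All 12 deadenylase genes of the CCR4-NOT and PAN complexes were detected, from *Pan3* at 3.19 ± 0.517 to *Cnot9* at 37.98 ± 3.25 CPM per kb (SD, n = 3). The 10 decapping and decay genes ran from the exonuclease gene *Xrn1* at 1.65 ± 0.592 to the helicase gene *Ddx6* at 30.5 ± 11.4. Of these lists, 11 of 12 and 9 of 10 genes differed between libraries beyond counting noise, beside the 81.5% of all genes. The 14 accessory genes of the Microprocessor were more abundant, from *Mettl3* at 6.80 ± 1.05 to *Hnrnpa1* at 668 ± 112 CPM per kb. The 14 loading and transport genes ran from *Ipo8* at 4.15 ± 1.57 to the chaperone gene *Hsp90ab1* at 1813 ± 32.8. Median levels per kb of the accessory and loading lists were 80.5 and 64.7 CPM, against 19.3 for the deadenylases, 15.3 for decapping and 11.1 for the 10 machinery genes.

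Among the cofactor lists, the regulators of microRNA precursors had the lowest ratio in replicate 3, and 7 of the 11 have over 8 kb of exon. Their median log2 ratio of replicate 3 to the others was -0.97, against -0.64 for decapping, -0.27 for the deadenylases, -0.27 for the Microprocessor accessory genes, -0.13 for loading and transport and -0.11 for TNRC6. With the trend on length and GC content removed, the median of the regulators was -0.53, or -0.42 with the longest transcript as the length, and those of the other 5 lists lay between -0.09 and 0.14 with exonic length. *Lin28a*, whose product binds the let-7 precursor and blocks its processing, was at 139, 80.2 and 27.7 CPM in replicates 1, 2 and 3, and *Lin28b* at 156, 121 and 55.7. *Tut4* and *Tut7*, which encode the enzymes that add uridines to precursors, were at 172, 156 and 80.1 and at 48.2, 40.0 and 13.5 CPM. With the trend removed, the log2 ratios of *Lin28a*, *Tut7*, *Lin28b* and *Tut4* were -1.85, -1.02, -0.53 and -0.33, above 1.94%, 6.94%, 18.1% and 27.1% of all genes tested. These 4 genes were all highest in replicate 1 and lowest in replicate 3, as were 34% of all genes tested and 6 of the 10 machinery genes, *Ago1*, *Ago2*, *Ago3*, *Dgcr8*, *Dicer1* and *Prkra*. Of the 7 epithelial markers, 4 were also lowest in replicate 3, among them *Cdh1* at 48.1, 32.5 and 13.4 CPM and *Trp63* at 55.4, 29.6 and 11.4, while *Krt5* and *Krt18* were highest there and *Krt8* was lowest in replicate 2. Their trend-free median was -1.04. The 9 neuron markers had a lower trend-free median, -1.198, although only 1 of them was lowest in replicate 3. The part of the epithelium and of neurons in the regulators' levels was not tested. Among the 11 regulators the lowest level per kb was that of *Zc3h12a*, 0.595 ± 0.0757 CPM, and the highest that of *Khsrp*, 79.6 ± 9.06 (SD, n = 3). Of the 11 genes, 9 were lowest in replicate 3, against 45.6% of all genes tested, and *Dis3l2* was the only regulator highest there, against 43.2%.

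**Figure D5:**
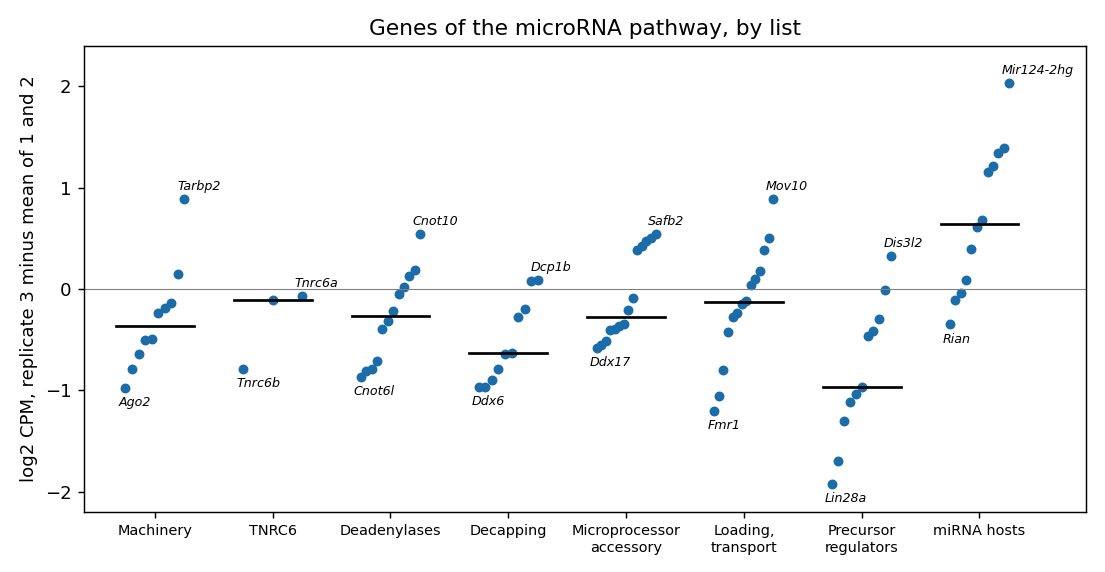
Log2 CPM in OE replicate 3 minus the mean of replicates 1 and 2 for each gene whose mean count reached 10, by pathway list, with the median of each list as a line and its lowest and highest genes labelled. The machinery has a median of -0.37, the precursor regulators the lowest at -0.97, and the microRNA host transcripts the highest at 0.64.

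Host transcripts, from which the machinery cuts its substrates, were read from a list of 18 genes, of which 16 were measured. No annotated hairpin was found within 4 of the 16. These are *Mirt1* and *Mirt2*, named as myocardial infarction associated transcripts and not known as microRNA hosts, and *Mir124a-1hg* and *Mir124-2hg*, which carry the name of a host. The maternally expressed RNA *H19*, host of miR-675, was the most abundant with 1373, 1287 and 1234 CPM, followed by *Mcm7*, whose introns hold miR-25, miR-93 and miR-106b, at 464, 511 and 518. The imprinted hosts *Meg3* and *Rian* were at 124, 114 and 190 CPM and at 197, 144 and 132, and *Mirg*, with 14 hairpins, at 5.93, 6.97 and 17.0. *Egfl7*, the endothelial host of miR-126, was at 29.2, 44.1 and 83.2 CPM, highest in replicate 3, although the summed endothelial markers were lowest there. The transcripts named for the neural miR-124 were rare and differed by library. *Mir124a-1hg* had 47, 0 and 13 counts and *Mir124-2hg* had 15, 101 and 173, so the first was highest in replicate 1, where the neuron markers were highest, and the second lowest there, like the eye and forebrain markers. The part of these tissues in their levels was not tested. *Mir99ahg* was at 3.96, 3.54 and 9.58 CPM and *Mir22hg* at 1.32, 1.24 and 1.70. *Mir9-3hg* had 5, 5 and 9 counts, *Mir155hg* 3, 6 and 9, *Mirt1* 0, 6 and 3, and *Mirt2* 0 in every library.

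In some hosts the microRNAs lie in exons, and mature sequences of 2 such hosts are printed to show what the machinery would release. *Mir17hg*, host of the miR-17-92 cluster on chromosome 14 of GRCm38, was at 30.1, 32.8 and 69.8 CPM in replicates 1, 2 and 3. Replicate 3 held more than either of the others. *Dnm3os*, a transcript of mesenchyme on chromosome 1 that holds miR-199a and miR-214, was nearly level at 33.4, 38.6 and 34.9 CPM. The main arms from RefSeq (GRCm38.p6, all on the plus strand) follow with the seed in capitals. In the first 6, miR-17 and miR-20a share a seed, as do miR-19a and miR-19b.
mmu-miR-17-5p (chr14:115043684-115043706): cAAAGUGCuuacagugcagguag
mmu-miR-20a-5p (chr14:115044183-115044205): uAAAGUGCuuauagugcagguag
mmu-miR-18a-5p (chr14:115043867-115043889): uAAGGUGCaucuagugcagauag
mmu-miR-19a-3p (chr14:115044048-115044070): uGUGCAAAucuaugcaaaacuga
mmu-miR-19b-3p (chr14:115044358-115044380): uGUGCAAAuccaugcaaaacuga
mmu-miR-92a-3p (chr14:115044476-115044496): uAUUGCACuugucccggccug
mmu-miR-199a-3p (chr1:162217883-162217904): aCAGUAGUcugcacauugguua
mmu-miR-214-3p (chr1:162223438-162223459): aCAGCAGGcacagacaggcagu
The hairpin genes of these microRNAs all had 0 counts, and each of them lies within an exon of its host, where shared reads stay unassigned by default. A hairpin count of 0 is thus no measure of the microRNA. Over the whole annotation, 345 of 2202 microRNA genes had any count and 24 had at least 10 in every library. Their counts summed to 6802, 6606 and 35821 in replicates 1, 2 and 3. *Gm23935* held 2679, 2492 and 26952 of them and *Gm24270* 596, 497 and 4179. Replicate 3 stood apart in this sum too, and most of its excess lay in these 2 genes. *Gm25994* was lowest there, at 1537, 1342 and 852. All of these genes were named here after their values were seen.

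The promoters of the machinery genes were rich in CG dinucleotides but varied in base composition. RefSeq start sites were matched for 9 of the 10 genes, all but *Ago2*, with windows of 250 bases before to 50 after the start. *Ago1* had 2 windows that overlap over most of their length, so the 10 promoters stand for 9 genes. All 10 held at least 10 CG dinucleotides, as did 43.5% of all 32851 promoters, with a median of 37.5 against 7. They ran from 16 in *Prkra* and 21 in *Tarbp2* to 54 in *Ago4*. The median GC content was 73.7% against 52.7%, from 59.0% in *Tarbp2* to 83.3% in *Ago4*. The homeodomain core TAATTA (which is its own reverse complement), the E-box CACGTG (likewise) and TATAAA on either strand were in none of them, against 5.29%, 7.15% and 13.6% of all promoters. The window upstream of *Tarbp2* is shown because *Tarbp2* was the member that was highest in replicate 3 by the most, and it is the least GC-rich of the set. It is printed for chr15:102517942-102518191 of GRCm38.p6, plus strand, with CG dinucleotides in capitals.
*Tarbp2*: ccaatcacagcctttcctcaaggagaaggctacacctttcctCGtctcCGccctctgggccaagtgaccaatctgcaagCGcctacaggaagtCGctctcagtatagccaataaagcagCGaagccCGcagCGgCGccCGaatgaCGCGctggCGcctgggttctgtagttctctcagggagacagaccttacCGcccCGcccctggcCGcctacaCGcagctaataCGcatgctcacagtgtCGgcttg
A motif match or its absence in this window describes the letters alone. With libraries of 1 genotype, the data do not bear on whether *Dlx2* acts on *Tarbp2*.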

How the data were processed

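Total RNA of E10.5 maxillary processes was sequenced as poly(A) libraries (NEBNext Ultra kit) with paired-end reads. The authors mapped reads to mm10 with STAR 2.7.3a and deposited a table of raw counts for every one of the 3 OE libraries; the submitters' processing notes also name FastQC and HTSeq 0.12.4. The strand setting and annotation release are not given in the sources used here. Rows that name no gene held 14.2%, 15.7% and 16.4% of reads and were left out. Of 55401 identifiers, 55141 matched GENCODE M21 (GRCm38) without the version, which gave names, coordinates and lengths.

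Counts were scaled with TMM in edgeR 4.0.16 (R 4.3.3), with factors of 1.06, 1.01 and 0.940, and divided by union exon length where genes were compared. A count of 0 allows up to 3 counts, or 0.0777, 0.0843 and 0.0796 CPM, which covers counting error only and not reads left unassigned. Log2 CPM used a prior count of 2. A chi-square test per gene with Benjamini-Hochberg adjustment, edgeR dispersions from an intercept-only model and a smooth trend on length and GC (mgcv 1.9.3) covered the 17115 genes whose mean count reached 10, and were tested on simulated data. DESeq2 1.42.0 gave alternatives. Sequences were read with biopython 1.88, and proteins were aligned with BLOSUM62. The methods of the study speak of independent RNA samples, so p-values measure only the spread between these samples, which may be technical.

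The rule for members used names alone, but members, lists and tests were chosen with earlier results of these data known. Named were all 10 members, all microRNA hosts, *Lin28a*, *Lin28b*, *Tut4*, *Tut7* and the TNRC6 and PIWI genes. Of each pathway list, any gene that no library counted above 3 was named, as were those of highest and lowest mean level per kb. Single cell type markers were named under no such rule. *Mir100hg* and *Mir143hg* had no identifier, *Mirt2* had 2 and was read from ENSMUSG00000092920, and genes at the ends of the plotted ratios were labelled after their values were seen, as were *Trmt2a* and *Dis3l2*.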

Additional observations from a re-analysis of the deposited data

How the results depend on the processing

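Scaling with DESeq2 size factors or library totals changed no result of the machinery beyond the spread between replicates. Results that moved did so with the length, the trend or a library. With the longest coding transcript as the length, the median level of the 10 genes was 15.98 instead of 11.1 CPM per kb, the *Tarbp2* share 65.6% instead of 45.1% and the *Dicer1* to *Drosha* ratio 0.400 instead of 0.306, and 6 of the 10 single levels moved. With the trend on length and GC content removed, the median log2 ratio of replicate 3 turned from -0.37 to 0.035. Trends on the longest transcript were added after seeing the data and gave 0.084 with GC content and 0.086 without; the trend-free medians of the pathway lists and of replicate 1 were added then too. The cause was not tested.

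Leaving out each replicate gave 9.72 to 13.2 CPM per kb for the median level, 7 to 10 genes beyond counting noise, 0.111 to 0.361 for the median biological coefficient of variation from edgeR (lowest without replicate 3), -0.51 to -0.27 for the log2 ratio, 43.9% to 48.7% for the *Ago2* share, 39.3% to 49.0% for the *Tarbp2* share, 5.36 to 7.41 for *Drosha* to *Dgcr8* and 0.280 to 0.348 for *Dicer1* to *Drosha*. The count of 64 cofactor genes held in each. No paired analysis was possible because there is only 1 group. At 92 to 148 counts, *Ago4* is limited most by depth. Of 55 alternative values for these summary results, 48 stayed within the spread, and 63 of 70 for single genes did.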
